A study of Mus musculus with 4 samples.

Results

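Expression of 9 endoplasmic reticulum (ER) stress genes was followed across the cells of mouse B16-F10 melanomas. The genes were taken by symbol from the gene table of the deposited counts, which lists 28692 genes: Xbp1, Atf4, Ddit3, Hspa5, Hsp90b1, Calr, Pdia4, Pdia6 and Herpud1. All 9 were counted in all 4 libraries, with 751193 of 277406385 unique molecular identifiers (UMIs, each counting 1 captured RNA molecule).

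Secreted and membrane proteins fold in the ER, where chaperones such as BiP (Hspa5) hold unfinished chains and disulfide isomerases set their bonds. When unfolded chains build up, the sensors IRE1, PERK and ATF6 start the unfolded protein response. IRE1 splices Xbp1 mRNA, PERK favours translation of Atf4 mRNA, and ATF6 is cut to release a transcription factor, and together they raise chaperones, degradation factors and, under lasting stress, the death-linked factor CHOP (Ddit3). In immune cells the XBP1 branch is best known from antibody-secreting plasma cells and from dendritic cells. Counts of 3' ends, as used here, do not tell spliced from unspliced Xbp1, and they do not measure the translation of Atf4.

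B16-F10 is a transplantable melanoma line of C57BL/6 mice. Tumour-bearing C57BL/6 mice received Pmel-1 CD8 T cells, whose transgenic receptor recognises gp100, an antigen of melanoma cells, on day 3 after implantation. In the IRF4 arm the Pmel-1 cells had been transduced with IRF4-GFP, and in the control arm with GFP only. Antigen receptor signals induce IRF4, a transcription factor, in T cells, and plasma cells need it. On day 14 the transferred Pmel-1 cells and the endogenous CD45+ cells (immune cells of the host) were sorted from the tumours of both arms, giving 4 groups of 1 library each. The vector's promoter, the age of the mice and the number of tumours behind each library are not given in the sources used here. By its title the series asks what IRF4 does for the immunity of CD8 T cells against tumours.

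Barcodes numbered 715 (IRF4 arm) and 3640 (control arm) among transferred cells, and 6981 and 6375 among endogenous ones. Filters kept 572, 2513, 6371 and 5676 of them, whose median depths were 16370, 19963, 8437 and 10521 UMIs. The share of barcodes over the mitochondrial limit was 18.7% and 27.2% in the transferred libraries and 8.51% and 9.24% in the endogenous ones. CD8 T-like cells numbered 476, 1946, 1771 and 508. They held all 4 T cell markers and both CD8 markers in every library, and the CD4 T cell markers summed to between 0.800 and 5.92 CPM (a gene's UMIs in all cells of one class, scaled so that every UMI of that class sums to 1000000). Other lists were less clean. Monocyte or macrophage markers summed to 370, 324, 539 and 740 CPM, NK markers to 26.5, 41.7, 191 and 165, and mature DC markers to 327, 274, 50.1 and 98.0. Their part in the ratios was not tested, apart from a gate per cell by marker UMIs as an alternative. Irf4 itself stood at 27.7 CPM in the transferred IRF4 arm and 24.7 in the control arm, but transcripts of the vector may not be counted by a 3' tag, so this does not check the labels. With 1 library per group no difference between groups was tested: every bracketed range is a 95% interval for counting error only, and it does not cover the spread between animals. A gene is called higher or lower here at a ratio of at least 1.5 on the log2(CPM + 1) scale, over genes that reach 10 CPM and 20 UMIs in whichever library is higher.

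The promoters are shown first, with an exact search for 4 motifs of ER stress control. The members were named as ER stress genes beforehand, so the shares below are a description and no test. The ER stress element (ERSE: CCAAT, then 9 bases, then CCACG), bound by NF-Y together with ATF6 or XBP1, was searched on both strands of the 250 bases before the RefSeq start of each gene (GRCm38.p6). It was found in 4 of the 9 members and in 37 of 32851 windows of the same length, or 0.113%. ERSE-II (ATTGG, then 1 base, then CCACG) was found in Herpud1 and in 10 windows, or 0.0304%. The core of the unfolded protein response element, TGACGTG, was found in Hspa5 and in 1.65% of windows. The core of the ATF4 composite element (TGATG, then 1 base, then AA) was found in Herpud1 and in 3.45% of windows. No sites found in the members overlap each other. Capitals mark the bases that each motif fixes, on the strand of the gene and read 5′ to 3′, so that a site on the opposite strand appears as its reverse complement (CGTGG then ATTGG).
Hspa5, chr2:34771928-34771944, plus strand: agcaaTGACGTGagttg
Hspa5, chr2:34772020-34772048, plus strand: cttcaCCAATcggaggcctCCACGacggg
Hsp90b1, chr10:86705523-86705666, minus strand: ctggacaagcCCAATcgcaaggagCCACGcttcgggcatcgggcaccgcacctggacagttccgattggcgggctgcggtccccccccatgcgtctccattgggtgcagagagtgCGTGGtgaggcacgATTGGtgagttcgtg
Calr, chr8:84847065-84847103, minus strand: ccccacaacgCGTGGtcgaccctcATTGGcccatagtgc
Pdia6, chr12:17266481-17266519, plus strand: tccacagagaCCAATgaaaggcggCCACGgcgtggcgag
Herpud1, chr8:94386307-94386397, plus strand: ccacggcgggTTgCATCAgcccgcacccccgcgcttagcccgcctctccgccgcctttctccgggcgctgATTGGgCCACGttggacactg

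Hsp90b1 held 2 ERSE sites, on opposite strands, 212 to 194 and 107 to 89 bases before its start, and it was the only 1 of the 32851 windows with 2 or more. The single ERSE sites of Hspa5, Calr and Pdia6 began 65, 162 and 98 bases before the start. The Hspa5 site lies before the RefSeq start but inside the longer gene model of the GENCODE vM21 annotation. The windows of Xbp1, Atf4, Ddit3 and Pdia4 held none of the 4 motifs in this exact form, which says only that these letters are not in those windows.

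Across cell classes of the endogenous libraries, Xbp1 (ENSMUSG00000020484, chr11:5520659-5525893, plus strand), which encodes the factor that IRE1 activates by splicing, was highest in plasmacytoid DC-like cells, a class of type I interferon producers. It stood there at 456 CPM in the IRF4 arm versus 494 in the control arm, which is 9.31-fold and 11.2-fold above the 49.0 and 44.1 CPM of CD8 T-like cells. Monocyte or macrophage-like cells had 251 and 215 CPM, cDC2-like cells 165 and 167, and cDC1-like cells 147 and 121. These myeloid and dendritic classes thus stood above the T and NK classes in both libraries, which mature DC-like cells did not. NK-like cells had 75.4 and 64.7 CPM, Treg-like cells 85.0 and 59.7, CD4 T-like cells 65.0 and 38.2, and mature DC-like cells 63.9 and 51.0. The order of neighbouring classes was the same in both libraries in 4 of 9 steps, so the order among the T, NK and mature DC-like classes is not fixed by these data. After every cell was thinned to 2000 UMIs, an Xbp1 UMI was found in 51.2% (40.0 to 62.3) and 57.6% (49.7 to 65.2) of plasmacytoid DC-like cells of the IRF4 and control arms, against 100% and 99.4% unthinned. The thinned shares of the monocyte or macrophage-like class were 37.3% (34.6 to 40.2) and 35.4% (33.2 to 37.6), against 87.6% and 86.3% unthinned.

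Xbp1 differed between libraries in B-like cells, with 264 CPM in the IRF4 arm versus 101 in the control arm, as it did by a smaller ratio in CD4 T-like cells. In the B-like class of each library 1 cell with plasma cell transcripts held most of it. The IRF4 arm cell had 227 UMIs of Jchain (the joining chain of secreted IgA and IgM), 210 of Mzb1 (a plasma cell chaperone) and 140 of Xbp1, which is 80.0% of the 175 Xbp1 UMIs of 131 B-like cells. The control arm cell had 1746 UMIs of Jchain, 275 of Mzb1 and 152 of Xbp1, which is 62.8% of 242 in 531 cells. Both cells stood at 3601 and 3688 CPM of Xbp1 and at 7949 and 6188 CPM of Hsp90b1, while neither held a Ddit3 UMI among 38873 and 41212. Without these cells, B-like cells had 56.1 (39.1 to 78.0) and 38.1 (30.6 to 46.8) CPM of Xbp1, close to the levels of CD4 T-like and CD8 T-like cells.

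Atf4 (ENSMUSG00000042406, chr15:80255184-80257541, plus strand), the factor of the PERK branch, varied less between classes. It was highest in monocyte or macrophage-like cells, at 222 and 191 CPM, 1.96-fold and 1.79-fold above CD8 T-like cells, followed by B-like cells at 205 and 152. NK-like cells had 203 and 149.7 CPM, and CD8 T-like cells had 114 and 107. Ddit3 (ENSMUSG00000025408, chr10:127290774-127296288, plus strand), which encodes CHOP, was highest in NK-like cells at 59.7 and 65.3 CPM and in monocyte or macrophage-like cells at 58.3 and 56.9. It was lowest in cDC1-like cells at 17.1 and 14.8 CPM. These places are among the 10 classes with at least 50 cells in both libraries. The reading for Ddit3 is uncertain to the extent that its end overlaps Mars on the opposite strand and the sources used here do not say whether counting used the strand. A small class of neutrophil-like cells, with 44 and 86 cells at median depths of 2522.5 and 2133 UMIs, had far more Ddit3, at 483 and 376 CPM. In the same cells Hsp90b1 stood at only 81.8 and 125 CPM and Pdia4 at 16.4 and 14.5.

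The places below are among the 10 classes with at least 50 cells in both libraries, which leaves out neutrophil-like and mast or basophil-like cells. There the 5 chaperone and isomerase genes were lowest in mature DC-like cells, except for Pdia6 in the control arm. Their higher classes were not all the same. Hspa5 (ENSMUSG00000026864, chr2:34771970-34777547, plus strand), the BiP gene, was highest in monocyte or macrophage-like cells, at 1105 and 1225 CPM. Plasmacytoid DC-like cells had 1032 and 1033 CPM, cDC1-like cells 991 and 919, and cDC2-like cells 862 and 812. Mature DC-like cells were lowest, at 295 and 272 CPM, and 8 of 9 neighbouring steps had the same order in both libraries. Hsp90b1 (ENSMUSG00000020048, chr10:86690209-86705509, minus strand), which encodes the ER HSP90 known as GRP94, a chaperone of Toll-like receptors and integrins, was highest in plasmacytoid DC-like cells at 1297 and 1194 CPM. Its lowest class of the 10 was again mature DC-like, at 218 and 226 CPM. Calr (ENSMUSG00000003814, chr8:84841850-84846934, minus strand), the calcium-binding lectin chaperone that also serves MHC class I loading, ran from 279 and 290 CPM in mature DC-like cells to 827 and 800 in cDC1-like cells. Its highest class differed between libraries, since monocyte or macrophage-like cells of the control arm reached 911 CPM against 697 in the IRF4 arm.

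Of the disulfide isomerases, Pdia6 (ENSMUSG00000020571, chr12:17266545-17284770, plus strand), which also limits IRE1 activity, had 337 and 413 CPM in monocyte or macrophage-like cells and 365 and 370 in plasmacytoid DC-like cells. Mature DC-like cells had 76.9 and 90.4 CPM, and CD4 T-like cells 102 and 83.5. Pdia4 (ENSMUSG00000025823, chr6:47796141-47813430, minus strand), an isomerase with several thioredoxin-like domains, had 111 and 112 CPM in plasmacytoid DC-like cells and 22.5 and 21.7 in mature DC-like cells. It stood at 184 and 87.7 CPM in B-like cells, with plasma cell transcripts among them, and at 66.3 and 109 in monocyte or macrophage-like cells, which put that class at place 8 of 10 in the first library and 2 in the other. Herpud1 (ENSMUSG00000031770, chr8:94386438-94395377, plus strand), which encodes HERP, a membrane component of ER-associated degradation, was not lowest in mature DC-like cells. It was highest in plasmacytoid DC-like cells, at 297 and 282 CPM, and low in CD8 T-like cells, at 49.4 and 50.2, and in CD4 T-like cells, at 52.7 and 47.4. Mature DC-like cells had 200.3 and 162 CPM. Hsp90b1, Pdia6 and Herpud1 also overlap a counted gene on the opposite strand (1810014B01Rik, Atp6v1c2 and the antisense gene Gm15890), so that reads of these pairs cannot be told apart without strand.

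**Figure D1:**
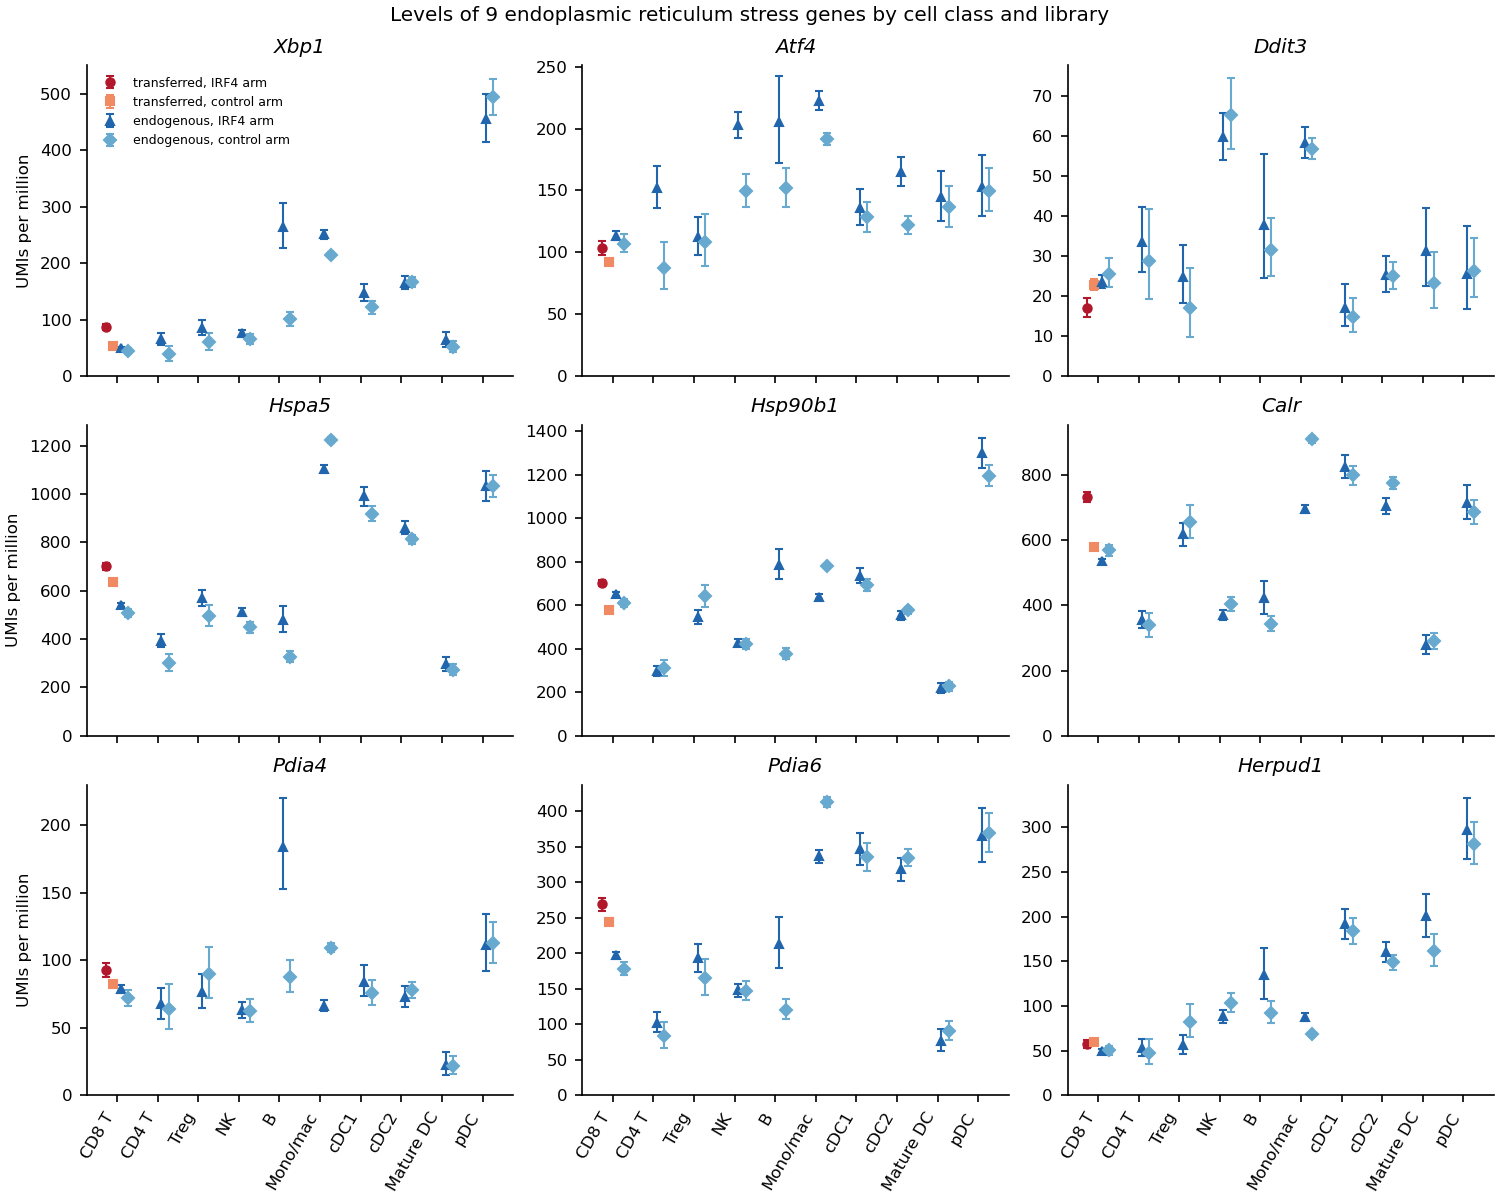
Levels of the 9 genes (y axis, CPM on a linear scale) by cell class (x axis), with 1 point per library and bars for the 95% counting interval; transferred libraries are shown for CD8 T-like cells only. Among the classes shown, plasmacytoid DC-like cells stand highest for Xbp1, at 456 and 494 CPM. Mature DC-like cells stand lowest there for the 5 chaperone and isomerase genes, except for Pdia6 in the control arm.

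Monocyte or macrophage-like cells fell into 3 clusters that differed in these genes. Cluster 10, led by Inhba, Nos2 and Arg1, had 1532 and 1411 CPM of Hspa5 in the IRF4 and control arms, 184 and 106 of Ddit3 and 399.9 and 295 of Atf4. Cluster 11, led by Ace and Adgre4, had 662 and 625 CPM of Hspa5, 21.3 and 15.7 of Ddit3 and 166 and 113 of Atf4. Cluster 9, led by Cxcl10 and Cxcl9, had 1322 and 1283 CPM of Hspa5, 43.0 and 34.1 of Ddit3 and 204 and 141 of Atf4, between the other two. In both libraries cluster 10 thus stood above cluster 11 for the BiP gene and for both genes of the PERK branch. Xbp1 and Herpud1 had the opposite order, with 149.7 and 154 CPM of Xbp1 in cluster 10 against 291 and 278 in cluster 11, and 22.8 and 36.4 CPM of Herpud1 against 126 and 119.5. None of the 3 clusters had a monocyte or macrophage marker among its 10 leading genes, and cluster 10 had Sdc1, which is on the plasma cell list. The clusters were made without these 9 genes and without the pathway lists, but the comparison remains a description of cells from 1 library per arm.

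Over 18 pairs of class and library with at least 100 cells, the log2 levels of Hspa5 and Pdia6 ran closely together (Pearson r = 0.966), as did those of Calr and Pdia6 (0.941) and of Hspa5 and Calr (0.931). Hsp90b1 followed Hspa5 at 0.806, while Pdia4 followed Hspa5 at 0.439, Calr at 0.429 and Pdia6 at 0.519. Xbp1 had r of 0.719 with Pdia6, 0.699 with Hspa5, 0.682 with Hsp90b1, 0.626 with Atf4 and 0.192 with Ddit3. Ddit3 was closest to Atf4 among the members (0.693), and its r with Hspa5 was 0.033. These 18 pairs share 4 libraries and differ in depth, so the values are given as a description. They include the B-like cells of both endogenous libraries with their Jchain-rich cells. In the IRF4 and control arms 1 such cell held 80% and 62.8% of the Xbp1 UMIs of its class. The same cells held 59.3% and 28.2% of Hsp90b1 and 48.4% and 23.2% of Pdia4. Their part in the r values was not tested. Among 5346 genes with at least 50 CPM in a pair, those nearest to Xbp1 were Atf6 (0.909), Atp13a2 (0.901) and Tmed10 (0.890). Those nearest to Hsp90b1 were Manf (0.938), Ndufs8 (0.935) and Coq2 (0.889), and those nearest to Calr were Rpn1 (0.946), Pdia6 and Hspa5. Ddit3 was nearest to Tmx4 (0.943), Nin and Glul, Atf4 to Rhob (0.904), Jun and Rhoa, Pdia4 to Stt3b (0.871), Zfp706 and Sec63, and Herpud1 to Mtmr14 (0.922), Uvrag and Cbfa2t3. Hsd17b12 stood among the 3 nearest genes of both Hspa5 (0.932) and Pdia6 (0.939). For the mean of Hspa5, Hsp90b1, Calr, Pdia4 and Pdia6, the 10 nearest genes were Manf, Creld2, Ndufs8, Fkbp2, Rpn1, Tmem147, Dnajb11, Hsd17b12, Sec13 and Rpn2, with r between 0.861 and 0.930, and 6 of these 10 are in the pathway lists described below.

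In transferred CD8 T-like cells, Xbp1 was the member that differed most between arms. It stood at 86.1 CPM (1076 UMIs in 476 cells) in the IRF4 arm versus 53.2 CPM (2724 UMIs in 1946 cells) in the control arm. The IRF4 arm was higher, at a ratio of 1.62 (1.51 to 1.74), and 2.52% of the 7427 genes compared had a ratio at least as high. Of the 9 members, 1 was called higher and 0 lower, against 3.65% of all genes compared called higher and 2.6% called lower. Thinned to 2000 UMIs, 16.2% (13.0 to 19.8) of cells in the IRF4 arm versus 10.2% (8.85 to 11.6) in the control arm held an Xbp1 UMI, against 66.4% and 56.0% unthinned. The UMIs were not held by a few cells: 67 of 476 cells (14.1%) held the upper 50% of them in the IRF4 arm, and 243 of 1946 (12.5%) in the control arm. Every cell class here expressed Xbp1, so no class gives a background share for it.

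The other members of the stress-factor group differed less. Atf4 stood at 103 CPM in the IRF4 arm versus 92.1 in the control arm, ratio 1.12 (1.05 to 1.19), and turned to 0.818, on the log2(CPM + 1) scale, in cells without a cell-cycle UMI. Ddit3 stood at 17.0 and 22.8 CPM, ratio 0.747 (0.643 to 0.865), and turned to 1.04 after thinning to 2000 UMIs per cell. Each of them kept its direction in 15 of 16 alternatives, these being the exceptions. The 16 include other limits for a call and for the level compared, which cannot change a direction.

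Each of the 5 chaperone and isomerase genes had a ratio above 1 that fell short of a call. Calr stood at 734 CPM in the IRF4 arm versus 581 in the control arm, ratio 1.26 (1.23 to 1.29), and Hsp90b1 at 701 and 577, ratio 1.21 (1.18 to 1.24). Hspa5 stood at 702 and 635 CPM, ratio 1.10 (1.08 to 1.13). Pdia4 stood at 92.4 and 82.4 CPM, ratio 1.12 (1.05 to 1.20), and Pdia6 at 269 and 245, ratio 1.10 (1.06 to 1.14). These small ratios were above the counting error, but with 1 library per arm they cannot be set against the spread between mice. Herpud1 stood at 57.4 and 59.8 CPM, ratio 0.961 (0.884 to 1.04), a difference within the counting error. Over the 9 members 7 ratios were above 1, and their median log2 ratio was 0.16, against 0.01 over all genes compared.

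Few other genes of the pathway were called between the transferred libraries, where 3.65% of all genes compared were called higher and 2.6% lower. Of 20 further chaperones and folding enzymes 18 could be compared, and 0 were called either way, with 15 ratios above 1. Their median log2 ratio was 0.20, against 0.16 for the members and 0.01 over all genes compared. Of 27 translocation and secretory genes 25 could be compared and of 16 degradation genes 14, and 0 of either list were called, with median log2 ratios of 0.06 and 0.05. Of 26 PERK and ATF4 targets 18 could be compared, and 1 was called higher and 1 lower. The one called higher was Atf3, a stress-induced factor, at 12.7 CPM in the IRF4 arm versus 7.82 in the control arm, ratio 1.63 (1.35 to 1.96). Asns, the asparagine synthetase gene, was lower in the IRF4 arm, at 18.0 against 28.3 CPM, ratio 0.636 (0.550 to 0.732). Ppp1r15a, which encodes GADD34, the phosphatase subunit that ends the PERK signal, had a ratio of 1.52 (1.37 to 1.68), just short of a call with the pseudocount. Of 10 sensors and processing genes 8 could be compared, and the one call was Mbtps2, the site-2 protease that cuts ATF6, at 8.64 against 13.8 CPM, ratio 0.627 (0.507 to 0.769). Nploc4, a degradation factor, had the next highest ratio of the lists, at 1.45 (1.24 to 1.69), and Bbc3, the PUMA gene, the next lowest, at 0.710 (0.609 to 0.825).

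**Figure D2:**
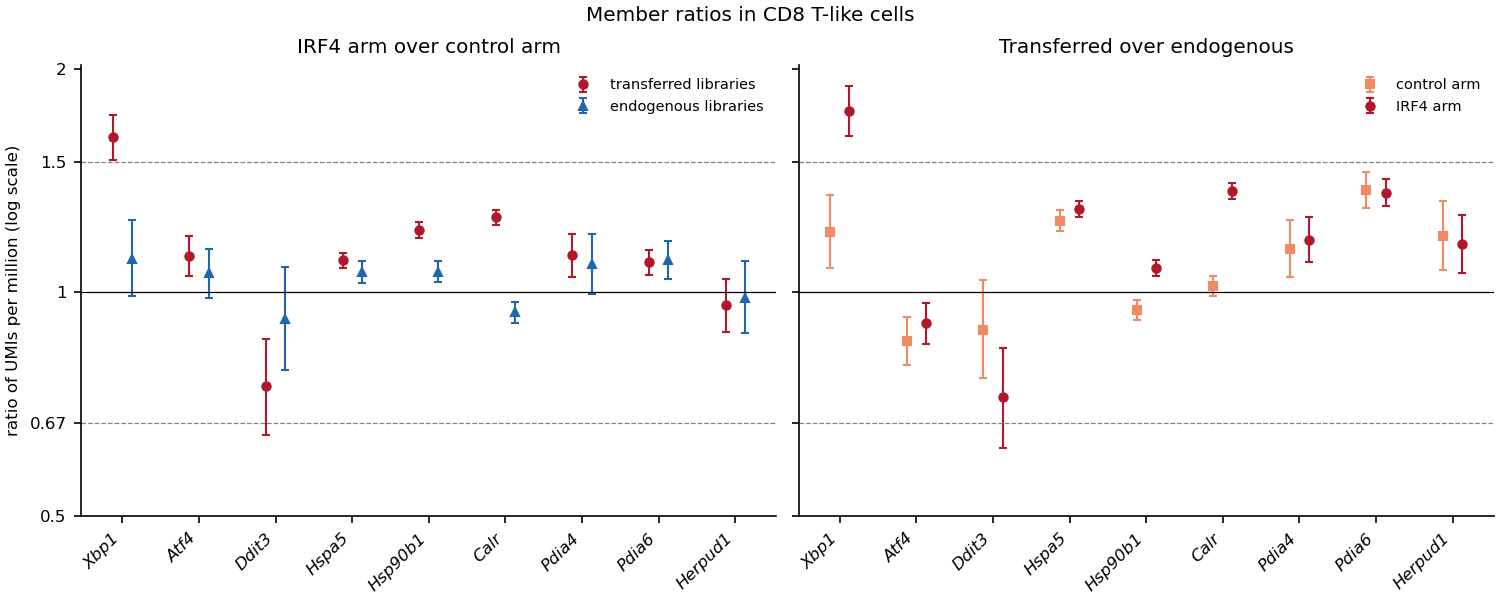
Ratios of CPM in CD8 T-like cells (y axis, log scale) for each gene, IRF4 arm over control arm on the left and transferred over endogenous on the right, with 95% counting intervals and dashed lines at a ratio of 1.5 either way. Xbp1 passes the line in the transferred libraries (1.62) and in the IRF4 arm of the right panel (1.76), and no other member does.

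Because the arms differed in the make-up of their transferred CD8 T-like cells, the ratios were also taken within clusters. Most transferred cells lay in clusters 2, 7 and 4 in the IRF4 arm (25.2%, 23.7% and 19.1%) and in clusters 2, 3 and 7 in the control arm (38.4%, 21.2% and 20.6%), where cluster 4 held 2.31%. Clusters 2 and 7 were led by Dapl1, the latter with cell-cycle genes, cluster 3 by Ccl5 and Gzmk, cluster 4 by the granzymes Gzme and Gzmf, and cluster 8 by the cytokine genes Ifng, Xcl1, Ccl4 and Il2. Xbp1 was higher in the IRF4 arm in 4 of the 5 clusters compared, at 87.0 against 43.2 CPM in cluster 2, ratio 2.01 (1.69 to 2.39). In cluster 4 it stood at 112 against 57.5 CPM, ratio 1.95 (1.37 to 2.86), from 91 and 45 cells. In cluster 7 it stood at 76.9 against 50.7 CPM, ratio 1.52 (1.37 to 1.69). In cluster 8 it stood at 141 against 75.3 CPM, ratio 1.87 (1.53 to 2.27), from 36 and 311 cells. Cluster 3 had 63.7 against 66.9 CPM, ratio 0.953 (0.665 to 1.34), from 83 and 413 cells. The clusters were compared with at least 30 cells per library, a limit lowered from 50 cells after the data were seen. At 50 cells clusters 2, 3 and 7 remain, and Xbp1 was higher in 2 of these 3.

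Calr had ratios of 1.18 (1.10 to 1.26), 0.917 (0.791 to 1.06), 1.58 (1.39 to 1.80), 1.21 (1.17 to 1.248) and 1.54 (1.44 to 1.64) in clusters 2, 3, 4, 7 and 8. It thus exceeded 1 in the same 4 clusters as Xbp1. Hspa5 and Hsp90b1 had ratios near 1 in clusters 2 and 3 (0.981 and 0.972, and 1.06 and 1.04) and higher ones in clusters 4 and 8 (1.32 and 1.31, and 1.44 and 1.33). Ddit3 was lower in the IRF4 arm in clusters 4 and 8, with ratios of 0.327 (0.194 to 0.545) and 0.462 (0.249 to 0.788), which rest on 28 and 14 UMIs in that arm, and near 1 in clusters 2 and 7 (1.05 and 1.02). In clusters 2, 3, 4, 7 and 8, members called higher numbered 1, 0, 2, 1 and 3. The shares of all genes called higher there were 3.53%, 5.24%, 13.7%, 1.65% and 3.34%. Members called lower numbered 0, 1, 1, 0 and 1, against 5.7%, 18.9%, 6.78%, 2.39% and 15.6% of genes.

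Cluster 8, the cytokine-producing cluster, had the highest levels of Hspa5, Calr and Pdia6 among the transferred clusters of both arms. Hspa5 stood there at 1406 CPM in the IRF4 arm versus 1076 in the control arm, against 432 and 441 in cluster 2. Calr stood at 1171 and 760 CPM against 513 and 435 in cluster 2, and Pdia6 at 559 and 368 against 142 and 153. The cluster was 7.56% of transferred CD8 T-like cells in the IRF4 arm versus 16.0% in the control arm. Its ratios between arms were 1.31 (1.23 to 1.39) for Hspa5, 1.52 (1.38 to 1.67) for Pdia6 and 1.45 (1.19 to 1.75) for Pdia4.

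**Figure D3:**
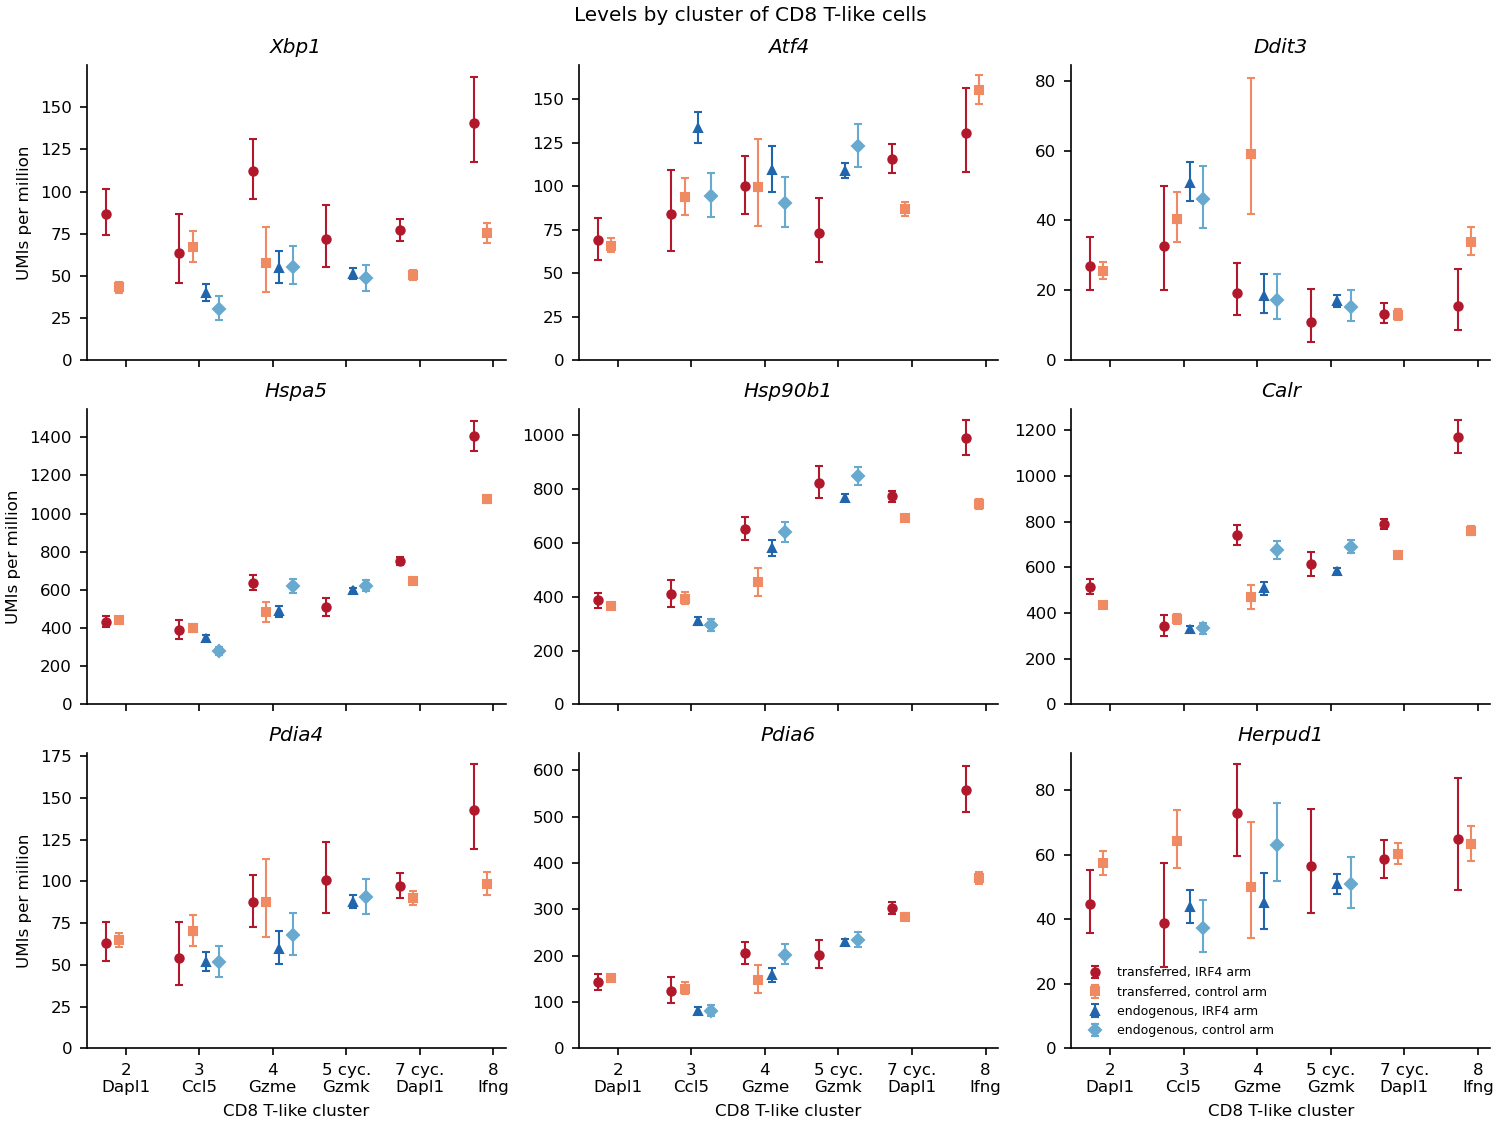
Levels (y axis, CPM) by cluster of CD8 T-like cells (x axis, with a leading gene; cyc. marks clusters with cell-cycle genes), 1 point per library with at least 30 cells and bars for the 95% counting interval. Cluster 8 stands highest for Hspa5, at 1406 and 1076 CPM, and Xbp1 of the transferred IRF4 arm lies above the control arm in clusters 2, 4, 7 and 8.

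Endogenous CD8 T-like cells, sorted as host cells, had 0 members called between arms, against 1.83% of genes called higher and 3.66% called lower. The vector was not measured in any cell. In the IRF4 arm 25, 24 and 11 of them lay in clusters 2, 7 and 8, which were mostly transferred cells. In the control arm these were 6, 6 and 5. Xbp1 stood at 49.0 CPM in the IRF4 arm versus 44.1 in the control arm, ratio 1.11 (0.988 to 1.252), within the counting error. Calr stood at 536 and 570 CPM, ratio 0.940 (0.910 to 0.972), the opposite direction to the transferred cells, though it turned to 1.06 when cells with markers of another type were left out. Hspa5 stood at 542 and 509 CPM, ratio 1.07 (1.03 to 1.10), Hsp90b1 at 649.6 and 609, ratio 1.07 (1.03 to 1.10), and Pdia6 at 197 and 178, ratio 1.11 (1.04 to 1.17). Atf4 (1.06), Ddit3 (0.921), Pdia4 (1.09) and Herpud1 (0.985) had intervals that included 1. The median log2 ratio of the members was 0.09, against -0.01 over all genes compared. Whether the arms differed more in transferred than in endogenous cells was not tested.

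Most endogenous CD8 T-like cells lay in clusters 3 and 5, with 48.3% and 41.1% in the IRF4 arm versus 61.0% and 19.5% in the control arm. Within cluster 3 Atf4 stood at 133 against 94.4 CPM, ratio 1.41 (1.22 to 1.64), and Hspa5 at 348 against 278, ratio 1.2497 (1.15 to 1.36). Within cluster 5, with 727 and 99 cells, Atf4 stood at 109 against 123 CPM, ratio 0.886 (0.797 to 0.988). Hspa5 stood there at 597 against 623 CPM, ratio 0.958 (0.915 to 1.005). In cluster 4 the ratios of Atf4 and Hspa5 were 1.21 (0.990 to 1.48) and 0.787 (0.724 to 0.855). Within cluster 4 Calr stood at 508 against 674 CPM, ratio 0.754 (0.696 to 0.817). Haemoglobin transcripts, the markers of red cells, moved with the arm: they summed to 1279 CPM in endogenous CD8 T-like cells of the control arm and 0.431 in those of the IRF4 arm. In the transferred libraries they summed to 86.5 and 0.320 CPM. Handling-stress genes such as Fos and Jun summed to 1330 and 1085 CPM in the endogenous and 892 and 712 in the transferred cells, in each case IRF4 arm first. The part of either in the ratios was not tested, apart from the cells with foreign markers left out as an alternative. Plasma cell markers stayed between 0.704 and 5.28 CPM in CD8 T-like cells of the 4 libraries and melanoma markers between 1.67 and 4.32.

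Of the pathway lists, 15 of 26 PERK and ATF4 targets could be compared in endogenous CD8 T-like cells, and 2 were called higher and 1 lower, against 1.83% and 3.66% of all genes. Cebpb, a factor induced by stress and inflammation, stood at 96.5 against 59.4 CPM, ratio 1.62 (1.47 to 1.79), and Ppp1r15a at 59.4 against 38.8, ratio 1.53 (1.35 to 1.73). Bcl2l11, the gene of the death factor BIM, was lower, at 34.2 against 76.3 CPM, ratio 0.448 (0.405 to 0.496). Sec24d, a coat protein of vesicles that leave the ER, was called lower among the secretory genes, at 6.53 against 11.6 CPM, ratio 0.564 (0.439 to 0.730). Sdf2l1, a cofactor of BiP, had a ratio of 1.42 (1.31 to 1.53) and Mbtps2 one of 0.714 (0.567 to 0.905), both short of a call.

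Transferred cells were also compared with endogenous CD8 T-like cells of the same arm. The sort and the library are the same split here, so cell origin, cluster make-up and library cannot be told apart, and both comparisons share their libraries with the ones above. In the control arm 0 members were called, against 6.28% of genes higher and 13.2% lower in transferred cells. In the IRF4 arm 1 member was higher and 0 lower, against 5.9% and 10.4%. That member was Xbp1, at 86.1 CPM in transferred and 49.0 in endogenous cells, ratio 1.76 (1.62 to 1.90), beside 53.2 and 44.1 CPM and 1.21 (1.08 to 1.35) in the control arm. Pdia6 had ratios of 1.37 (1.30 to 1.45) in the control arm and 1.36 (1.31 to 1.42) in the IRF4 arm, and Hspa5 had ratios of 1.249 (1.21 to 1.29) and 1.29 (1.26 to 1.33). Calr had 1.02 (0.988 to 1.05) in the control arm and 1.37 (1.33 to 1.40) in the IRF4 arm. Hsp90b1 had 0.948 and 1.08, and in the control arm it kept its direction in 10 of 16 alternatives. Pdia4 had 1.15 and 1.18, Herpud1 1.19 and 1.16, Atf4 0.861 and 0.909, and Ddit3 0.891 and 0.723.

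In cells without a cell-cycle UMI the same comparison gave 4 members higher in the control arm (Xbp1, Hspa5, Hsp90b1 and Pdia6) against 12.5% of genes, and 6 in the IRF4 arm (these and Calr and Pdia4), against 9.16%. There were 0 members lower in the control arm, against 16% of genes, and 1 in the IRF4 arm, Ddit3 at a ratio of 0.579, against 14.8%. On the log2(CPM + 1) scale the ratios there reached 2.30 and 2.46 for Pdia6 and 1.86 and 2.56 for Xbp1. Of the pathway lists, Bbc3 was higher in transferred cells of both arms, at 22.9 against 9.39 CPM in the control arm, ratio 2.44 (1.92 to 3.13), and at 16.2 against 6.75 in the IRF4 arm, ratio 2.41 (1.98 to 2.93). In the IRF4 arm Atf3 stood at 12.7 against 1.45 CPM, ratio 8.79 (6.31 to 12.4), and Bcl2l11 at 77.9 against 34.2, ratio 2.28 (2.09 to 2.49). Cebpb was lower in transferred cells of both arms, with ratios of 0.519 (0.467 to 0.577) and 0.391 (0.354 to 0.430). The other genes at the ends of the lists in the control arm were Slc7a5 (1.66), Shmt2 (1.62), Eif2ak2 (0.572) and Sec24d (0.375), and in the IRF4 arm Ppp1r15a (0.668) and Erp44 (0.674), which were short of a call.

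In endogenous CD8 T-like cells chaperone genes were higher in cycling cells, while Ddit3 was lower in cycling cells of all 4 libraries. Depending on the library, up to 20.1% of all genes were called higher in this contrast and up to 14.1% lower. Cells were called cycling with at least 1 UMI of Mki67, Top2a, Birc5, Cdk1 or Ccnb2, which held for 68.7% and 62.1% of transferred cells and 64.6% and 52.6% of endogenous cells of the IRF4 and control arms. Hsp90b1 was higher in cycling endogenous cells, with ratios of 2.25 (2.13 to 2.37) in the IRF4 arm versus 2.27 (2.08 to 2.48) in the control arm. In transferred cells its ratios were 1.34 (1.246 to 1.44) and 1.23 (1.19 to 1.27). Pdia6 had ratios of 2.28 (2.07 to 2.52) and 2.18 (1.86 to 2.56) in endogenous cells, and 1.18 (1.05 to 1.32) and 1.14 (1.09 to 1.20) in transferred cells. Calr had 1.60 (1.52 to 1.69) and 1.65 (1.53 to 1.79) in endogenous cells, and 1.19 (1.11 to 1.27) and 1.16 (1.13 to 1.20) in transferred cells. These 3 genes were above 1 in all 4 libraries.

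Ddit3 was lower in cycling cells of all 4 libraries. It had ratios of 0.562 (0.399 to 0.808) and 0.516 (0.453 to 0.587) in transferred cells and 0.399 (0.341 to 0.469) and 0.492 (0.368 to 0.662) in endogenous cells of the IRF4 and control arms. Xbp1 was below 1 in transferred cells, at 0.757 (0.641 to 0.899) and 0.805 (0.733 to 0.886), and above 1 in endogenous cells, at 1.19 (1.02 to 1.39) and 1.42 (1.08 to 1.88). Hspa5 had 1.004 (0.941 to 1.07) and 0.929 (0.903 to 0.956) in transferred and 1.51 (1.44 to 1.59) and 1.61 (1.48 to 1.75) in endogenous cells. Whether transferred and endogenous cells differed in this contrast was not tested.

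In counts, 0 members were higher and 1 lower in the transferred IRF4 library, against 18.1% and 11.6% of genes, and 0 higher and 1 lower in the transferred control library, against 7.11% and 4.7%. In the endogenous IRF4 library 5 were higher (the 5 chaperone and isomerase genes) and 1 lower, against 20.1% and 14.1%. In the endogenous control library 4 were higher (these without Pdia4) and 1 lower, against 18.9% and 12.7%. A cell with more UMIs is more likely to show a cell-cycle UMI, and the cycling clusters 5 and 7 were deep, with medians of 25183 and 48125.5 UMIs against 6795 in cluster 3. With every cell thinned to 2000 UMIs before the split, 0 members were higher in both transferred libraries, against 17.1% (IRF4 arm) and 9.13% (control arm) of genes. In the endogenous IRF4 library 4 were higher, against 17.2%: Hspa5 and Calr fell short of a call at ratios of 1.38 (1.247 to 1.53) and 1.48 (1.34 to 1.64), and Xbp1 passed it at 1.66 (1.19 to 2.33). In the endogenous control library 4 were higher, Hspa5, Hsp90b1, Calr and Pdia6, against 14.2%. Ddit3 was the 1 member lower in each library after thinning, against 14.1%, 9.58%, 14.2% and 20.7% of genes in the order of libraries used above. Its thinned ratios were 0.628 (0.253 to 1.43) and 0.478 (0.280 to 0.780) in transferred and 0.460 (0.300 to 0.693) and 0.305 (0.0935 to 0.778) in endogenous cells, the first within the counting error. They rest on only 9, 20, 34 and 5 Ddit3 UMIs in the cycling cells.

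**Figure D4:**
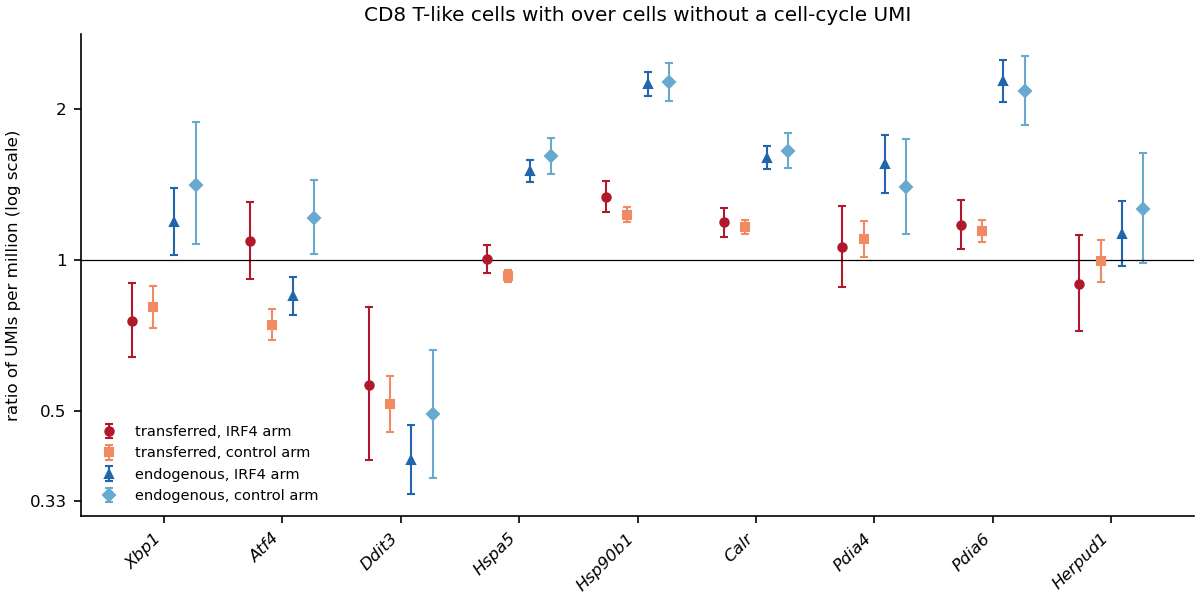
Ratio of CPM in CD8 T-like cells with over cells without a cell-cycle UMI (y axis, log scale) for each gene, 1 point per library with 95% counting intervals. Ddit3 lies below 1 in all 4 libraries (0.399 to 0.562), and Hsp90b1 and Pdia6 lie above 2 in the endogenous libraries and between 1.14 and 1.34 in the transferred ones.

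Among other endogenous classes, also sorted as host cells, 4 had at least 100 cells in both libraries and were compared. Atf4 had a ratio above 1 between the IRF4 and control arms in all 4. In CD8 T-like cells Atf4 had a ratio of 1.06 (0.984 to 1.15), and 0.886 (0.797 to 0.988) in their cluster 5. It stood at 152 against 87.7 CPM in CD4 T-like cells, ratio 1.73 (1.36 to 2.23), and at 203 against 149.7 in NK-like cells, ratio 1.35 (1.22 to 1.503). It stood at 205 against 152 CPM in B-like cells, ratio 1.35 (1.10 to 1.65), and at 165 against 122 in cDC2-like cells, ratio 1.36 (1.24 to 1.49). The smaller classes differed less or in either direction. Atf4 stood at 112 against 108 CPM in Treg-like, 153 against 150 in plasmacytoid DC-like and 136 against 128 in cDC1-like cells. Mature DC-like cells had 144 against 136 CPM, neutrophil-like cells 270 against 376 and mast or basophil-like cells 188 against 107. Monocyte or macrophage-like cells were compared by cluster, since cluster 10 was led by no marker of its own class and by 1 of another. Atf4 had ratios of 1.45 (1.36 to 1.56), 1.36 (1.26 to 1.46) and 1.47 (1.32 to 1.63) in clusters 9, 10 and 11. These cells come from the same 2 libraries, so the classes are not replicates of the arm.

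Other transcripts moved with the arm in the same cells, given here with the control arm first. Handling-stress genes went from 2181 to 3326 CPM in CD4 T-like, 2618 to 4138 in NK-like, 3671 to 5125 in B-like and 2515 to 4114 in cDC2-like cells, and from 2661 to 4952, 3876 to 7866 and 4134 to 8290 CPM in clusters 9, 10 and 11. Haemoglobin transcripts went from 8974 to 0 CPM in CD4 T-like cells, 20179 to 3.02 in B-like and 45.04 to 0.208 in cDC2-like cells. In NK-like cells they went from 114 to 223 CPM, and in clusters 9, 10 and 11 from 691 to 1.77, 1979 to 1.996 and 2094 to 0.525. Cell-cycle markers went from 41.6 to 388 CPM in B-like and from 337 to 516 in cDC2-like cells. In CD4 T-like cells they stood at 62.9 and 60.3 CPM and in NK-like cells at 39.1 and 52.6, and in clusters 9, 10 and 11 they went from 153 to 61.2, 78.2 to 16.0 and 10.96 to 11.2. The part of these transcripts in the ratios was not tested, apart from the cells with foreign markers or a cell-cycle UMI left out as alternatives.

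In CD4 T-like cells 2 of 9 members were called, Xbp1 and Atf4, both higher in the IRF4 arm. Of all genes compared there, 6.66% were called higher and 10.1% either way. Xbp1 stood at 65.0 against 38.2 CPM, ratio 1.70 (1.18 to 2.52), from 138 and 37 UMIs. In NK-like cells 0 members were called, against 2.94% of genes, and in cDC2-like cells 0, against 5.79%. In B-like cells 4 members were higher and 0 lower, against 6.36% of genes called higher and 11.5% lower, which is 17.9% either way. The 4 were Xbp1 at a ratio of 2.62 (2.15 to 3.20), Pdia4 at 2.10 (1.66 to 2.63), Hsp90b1 at 2.09 (1.87 to 2.33) and Pdia6 at 1.76 (1.43 to 2.16). Without the 2 Jchain-rich cells 0 members were called, again against 17.9%, with ratios of 1.47 (0.967 to 2.20), 1.47 (1.08 to 1.98), 1.24 (1.05 to 1.45) and 1.07 (0.811 to 1.41) for the same genes.

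In the monocyte or macrophage-like clusters Pdia4 had ratios between arms on both sides of 1. It was lower in the IRF4 arm in cluster 10, at 68.3 against 127 CPM, ratio 0.536 (0.455 to 0.629), and stood at 0.712 (0.648 to 0.782) in cluster 9 and 1.22 (1.004 to 1.495) in cluster 11. Cluster 10 also had Herpud1 lower, at 22.8 against 36.4 CPM, ratio 0.625 (0.466 to 0.826), and Ddit3 higher, at 184 against 106, ratio 1.73 (1.55 to 1.93). These 3 of 9 members were called there, against 21.9% of genes called either way. In cluster 9 0 members were called, against 10.5%, and in cluster 11 0, against 4.43%. Ddit3 had ratios of 1.26 (1.09 to 1.46) in cluster 9 and 1.36 (1.01 to 1.82) in cluster 11, so it was above 1 in all 3 clusters. Calr was below 1 in all 3, at 0.824 (0.800 to 0.849), 0.977 (0.933 to 1.02) and 0.851 (0.804 to 0.901) in clusters 9, 10 and 11. Cluster 10 held 223 cells in the IRF4 arm versus 668 in the control arm, cluster 9 445 versus 802, and cluster 11 512 versus 398.

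**Figure D5:**
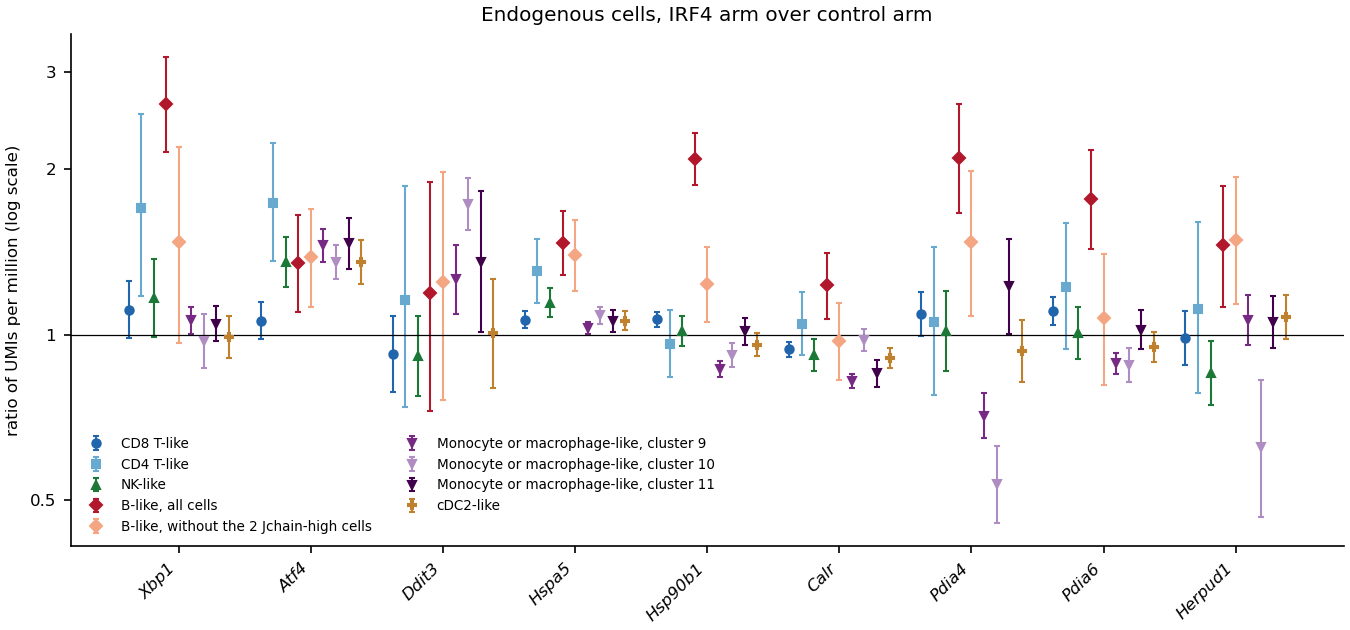
Ratio of CPM, IRF4 arm over control arm (y axis, log scale), for each gene in 5 endogenous classes and 3 monocyte or macrophage-like clusters, with B-like cells also shown without the 2 Jchain-rich cells and bars for the 95% counting interval. Atf4 lies above 1 in every one of them (1.06 to 1.73), and the B-like ratio of Xbp1 falls from 2.62 to 1.47 without the 2 cells.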

How the data were processed

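The kit was the 10x Genomics 3' kit v3, per the labels' protocols, which also speak of a nucleus suspension although cells were sorted. The authors deposited raw UMI counts, whole numbers for each gene in each barcode. Cell Ranger 3.0.2, STAR 2.6 and mm10 are named per the submitters' processing notes. No source used here names the annotation that was counted. Coordinates are from GENCODE vM21 (GRCm38) and promoters from RefSeq (GRCm38.p6), of which the 250 bases before each start were searched and all 9 members matched. The deposited tables hold 0 columns of other samples.

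Barcodes with at least 1000 UMIs, 500 genes and at most 10% mitochondrial UMIs were kept, 15132 of 17711. Libraries shared 0 to 18 barcodes in a pair (0 to 13 kept). Doublets were called with Scrublet in scanpy at an expected rate of 0.06, which marked 11 of 16007 scored barcodes (0.0687%) and so had not worked. An alternative left out the 6% highest scores. Cells were clustered together on 2000 variable genes, without the members, the pathway lists, Irf4, and ribosomal, mitochondrial and receptor variable genes, with 30 components, 15 neighbours and Leiden resolution 1. Of 23 clusters those with markers of 1 type were named "-like". The naming rule, with limits on Lyz2, Cd4 and Cd8a in T cell clusters, was set after the clusters had been seen, and no CD8 cluster had a CD8 marker among its 10 leading genes. A class with a cluster led by more markers of another class than of its own was compared between arms by cluster only. Unnamed clusters held 12.1% to 18.8% of cells, cluster 6 among them, which mixed T cell and macrophage transcripts. The members, the pathway lists and the marker lists were chosen with earlier results of these data known.

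UMIs were summed per class and library and scaled to CPM, in classes with at least 50 cells for levels, 100 for ratios and 30 for clusters (lowered from 50). Neutrophil-like cells of the IRF4 arm and mast or basophil-like cells of both arms fell below the 50 cells for levels. Intervals are exact Poisson (levels), conditional binomial (ratios) and Clopper-Pearson (shares), at 95%, for counting error only. The genes named are all members, the 3 highest and 3 lowest ratios over the pathway lists in each CD8 comparison, and the 3 genes with the highest r to each member. Counts for transferred CD8 cells were also simulated from a pooled profile with counting error only. With 7270 genes tested, 200 of 200 genes changed 2-fold were recovered, with 0 false calls. The simulation held no spread between animals and no difference in cell make-up. It therefore checks the calculation and does not give the rate of false calls in these data. Tools were Python 3.11.15, numpy 2.4.6, scipy 1.17.1, pandas 2.3.3, scanpy 1.11.5, anndata 0.12.19, scikit-learn 1.9.0, igraph 0.11.9 and matplotlib 3.10.9. Alternatives changed the cell filter, the gate, the clustering, the total, the pseudocount, the depth and the ratio that makes a call.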

Additional observations from a re-analysis of the deposited data

Results flagged for a closer look

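Calr had opposite directions in the 2 kinds of CD8 T-like cells: its log2 ratio of the IRF4 over the control arm was 0.34 in transferred cells and -0.09 in endogenous cells, a gap of 0.425. The gap rests on 1 library per group, and the difference was not tested. The endogenous value turned positive in 2 of 16 alternatives, reaching 0.08 without cells with markers of another type.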

How the results depend on the processing

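No paired analysis was possible because each group had 1 library and no replicate. In transferred CD8 T-like cells between arms, the smaller ratio tried gave 2 higher (Xbp1 and Calr) and 1 lower (Ddit3), against 10.5% and 8.70% of all genes, and a ratio of 2 gave 0 higher, against 0.754%. For transferred over endogenous cells of the control arm, 1 member (Pdia6) was higher at the smaller ratio, against 13.8% of genes, with a gate per cell by marker UMIs, against 7.39%, and with a total without ribosomal and mitochondrial genes, against 10.4%. The mean of CPM per cell gave 2, against 7.78%, thinning 2, against 12.3%, and cells without a cell-cycle UMI 4, against 12.5%. In the IRF4 arm the smaller ratio gave 4 higher and 1 lower, against 13.3% and 24.1%, and a ratio of 2 gave 0 higher, against 2.40%. There the mean of CPM per cell gave 3 higher, against 6.37%, thinning 2, against 6.71%, and cells without a cell-cycle UMI 6 higher and 1 lower, against 9.16% and 14.8%. Over the 4 other endogenous classes, 6 pairs of member and class were higher and 0 lower, against 4.12% and 4.51% of all gene and class pairs. Leaving out the 6% highest doublet scores gave 3 higher, against 3.79%, and leaving out cells with foreign markers 3, against 6.68%. The smaller ratio gave 12 higher, against 12.1%, a ratio of 2 gave 3, against 1.06%, and thinning gave 1 lower, against 8.68%. B-like cells had 0 higher without cells of 3 or more Jchain UMIs, an alternative chosen after seeing the data. The cause of these changes was not tested. Of the values that answer a comparison, 149 kept within their limits, 22 moved and 0 changed a called direction. The log2 ratio of Xbp1 in transferred cells was 0.68, and 0.62 to 0.78 over 16 alternatives. cDC2-like cells were not compared at resolution 0.5, where they formed no class, and the gate per cell was not run for classes other than CD8 T-like cells. Depth limits Ddit3, with 17.0 to 25.6 CPM in CD8 T-like cells.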
